A study of Mus musculus with 6 samples.

Results

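Glutathione peroxidases (GPX) are enzymes that reduce hydroperoxides, and the 5 genes of the family described here were Gpx1, Gpx3, Gpx4, Gpx7 and Gpx8. They were taken by symbol from the count table, and all 5 were found among its 43346 gene rows and passed the filter on low counts that left 14000 genes for testing. The libraries came from primary mouse embryonic fibroblasts (MEFs), cells with a limited life span grown from mouse embryos, of the strain C57BL/6 at passage 9. The treated group (3 libraries) was exposed to 3 µM erastin for 24 h, and the control group (3 libraries) to the solvent DMSO for the same time. Cells of both groups were grown in the same medium, which held fetal bovine serum, nonessential amino acids and 2-mercaptoethanol. No transgene or gene deletion is named for either group. The experiment is described as done in triplicate, without a statement on separate embryos or cultures, so the p-values measure only the spread between these libraries, which may be technical.

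Glutathione peroxidases use glutathione or another thiol as the reductant. GPX1 acts on hydrogen peroxide and small organic hydroperoxides in the cytosol and mitochondria, GPX3 is secreted, and GPX4 reduces hydroperoxides of phospholipids within membranes, which makes it the main enzymatic brake on ferroptosis, in which cells die when iron-catalysed peroxidation of their membrane lipids gets out of hand. GPX7 and GPX8 sit in the endoplasmic reticulum (ER), where they couple peroxide to the oxidation of protein disulfide isomerases. Erastin blocks the cystine/glutamate antiporter and so limits the cysteine from which glutathione is made. GPX1, GPX3 and GPX4 carry selenocysteine at the active site, an amino acid inserted at a UGA codon with the help of an RNA element behind the coding part, whereas GPX7 and GPX8 carry cysteine there.

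This difference is visible in the coding sequences of the GENCODE M21 transcripts (mouse build GRCm38), shown because it divides the family into the groups used for the results. Each window has 45 bases of coding sequence, written 5′ to 3′ as DNA, with the active-site codon in capitals.
Gpx1: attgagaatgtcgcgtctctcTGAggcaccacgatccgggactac
Gpx3: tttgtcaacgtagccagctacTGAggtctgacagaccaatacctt
Gpx4: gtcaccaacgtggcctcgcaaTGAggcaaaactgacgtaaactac
Gpx7: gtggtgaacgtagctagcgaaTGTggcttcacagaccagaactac
Gpx8: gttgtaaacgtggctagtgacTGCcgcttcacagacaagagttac
Gpx1, Gpx3 and Gpx4 have the selenocysteine codon TGA, while Gpx7 has the cysteine codon TGT and Gpx8 the cysteine codon TGC. At the same positions as in Gpx1, 21 of 45 bases were the same in Gpx3, 25 in Gpx4, 25 in Gpx7 and 23 in Gpx8. The codon is number 47 of 201 in Gpx1 (chr9:108339451-108339453, + strand, exon 1 of 2), number 73 of 226 in Gpx3 (chr11:54907256-54907258, + strand, exon 2 of 5) and number 129 of 253 in the longest Gpx4 coding sequence (chr10:80054737-80054739, + strand, exon 3 of 7). It is number 56 of 186 in Gpx7 (chr4:108403430-108403432, - strand, exon 2 of 3) and number 79 of 209 in Gpx8 (chr13:113045661-113045663, - strand, exon 2 of 3).

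Total counts per library ran from 13333911 to 20509970, and 3 counts, used as the floor of detection, were worth 0.139 to 0.233 CPM (counts per 1000000 of the library after TMM scaling). This floor covers counting error only. Replicates differed by more than sampling noise, with a chi-square per degree of freedom of 11 to 19.2 within groups and 78 to 123 between them. The 10 fibroblast markers summed to 28900 to 30000 CPM in DMSO and 17000 to 18900 CPM in erastin libraries, and 9 of the 10 fell. The summed macrophage markers lay at 25.4 to 44.1 and 29.4 to 59.7 CPM and the epithelial markers under 1 CPM in every library, while both tested endothelial markers of the 4 listed rose and the 4 summed to 4.65 to 7.09 and 13.2 to 16.4 CPM. The 3 muscle markers summed to 35.4 to 45.3 and 64.9 to 68.3 CPM, the 3 neural markers to 56.2 to 81.8 and 36.9 to 45.7 CPM, and the 3 adipocyte markers to 2.21 to 6.64 and 1.92 to 3.86 CPM, with Adipoq at 0 in every library. The part of these shifts in the results below was not tested.

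The comparison of erastin with DMSO asks which glutathione peroxidase transcripts changed with this inhibitor. Cystine uptake and glutathione levels were not analysed here. All 5 glutathione peroxidase genes were lower with erastin, Gpx1 by far the most, at 43.6% of its DMSO level, and Gpx8 the least, at 79.8%. Each passed at an adjusted p-value under 0.05 in edgeR's quasi-likelihood test, where 21.5% of the 14000 genes tested were lower and 43.1% changed in either direction. In all 5 genes the highest erastin library lay under the lowest DMSO library. Groups without overlap, in either direction, were seen in 52.5% of the genes tested. CPM values are relative to the other RNA of a library, and in such bulk samples fewer cells of a type and less RNA per cell cannot be told apart.

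Gpx1 (ENSMUSG00000063856.7, chr9:108338903-108340343) stood at 333, 315 and 274 CPM in the DMSO libraries (replicates 1 to 3, as in all such sets of values) and at 130, 136 and 136 CPM in those with erastin. The erastin libraries were nearly level with each other, and the lowest DMSO library was still well above them. The mean went from 307 ± 30.1 to 134 ± 3.61 CPM (SD, n = 3 each), and Gpx1 fell by 1.20 on the log2 scale (SE 0.08, 95% interval -1.37 to -1.03, edgeR adjusted p = 3.99e-08). Of the 14000 genes tested, 5.42% passed the test with a log2 fold change at or below that of Gpx1, Gpx1 included.

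Gpx4 (ENSMUSG00000075706.6, chr10:80047166-80056439), the phospholipid hydroperoxide reductase, was at 148, 136 and 140 CPM in DMSO and at 96.8, 117 and 103 CPM in erastin replicates 1 to 3. Erastin replicate 2 came closest to the DMSO libraries. Gpx4 fell by 0.42 on the log2 scale (SE 0.09, 95% interval -0.61 to -0.24, edgeR adjusted p = 0.00111), from 141 ± 6.02 to 105 ± 10.2 CPM (SD, n = 3 each). This call did not hold once trends with transcript GC content and length were removed by an offset, described further on, where the log2 fold change was -0.17 (95% interval -0.35 to 0.0034, edgeR adjusted p = 0.109).

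Gpx3 (ENSMUSG00000018339.7, chr11:54902453-54910377), whose product is the secreted enzyme, was at 136, 116 and 137 CPM in DMSO and at 88.3, 87.6 and 90.8 CPM in erastin libraries. DMSO replicate 2 was the lowest control, yet it lay above all treated libraries. Gpx3 fell by 0.54 on the log2 scale (SE 0.09, 95% interval -0.73 to -0.36, edgeR adjusted p = 0.000121), from a mean of 130 ± 11.5 to 88.9 ± 1.71 CPM (SD, n = 3 each).

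Among the cysteine-type ER enzymes, Gpx7 (ENSMUSG00000028597.11, chr4:108400390-108406961) was at 65.2, 67.5 and 73.6 CPM in DMSO and at 42, 39.9 and 42.5 CPM in erastin libraries. It fell by 0.73 on the log2 scale (SE 0.09, 95% interval -0.93 to -0.53, edgeR adjusted p = 1.57e-05), from 68.8 ± 4.35 to 41.5 ± 1.35 CPM (SD, n = 3 each), a larger estimate than those of Gpx3 and Gpx4 though the difference between the genes was not tested. Gpx8 (ENSMUSG00000021760.3, chr13:113042753-113046410), an ER membrane protein, had the tightest replicates of the family, at 98.3, 100 and 99.2 CPM in DMSO and 78.1, 79.9 and 79.8 CPM in erastin libraries. Its fall of 0.33 on the log2 scale (SE 0.08, 95% interval -0.49 to -0.16, edgeR adjusted p = 0.00361) was the smallest of the 5. The selenocysteine and the cysteine type thus overlapped in the size of their falls, with log2 fold changes of -1.20, -0.54 and -0.42 for the first and -0.73 and -0.33 for the second.

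**Figure D1:**
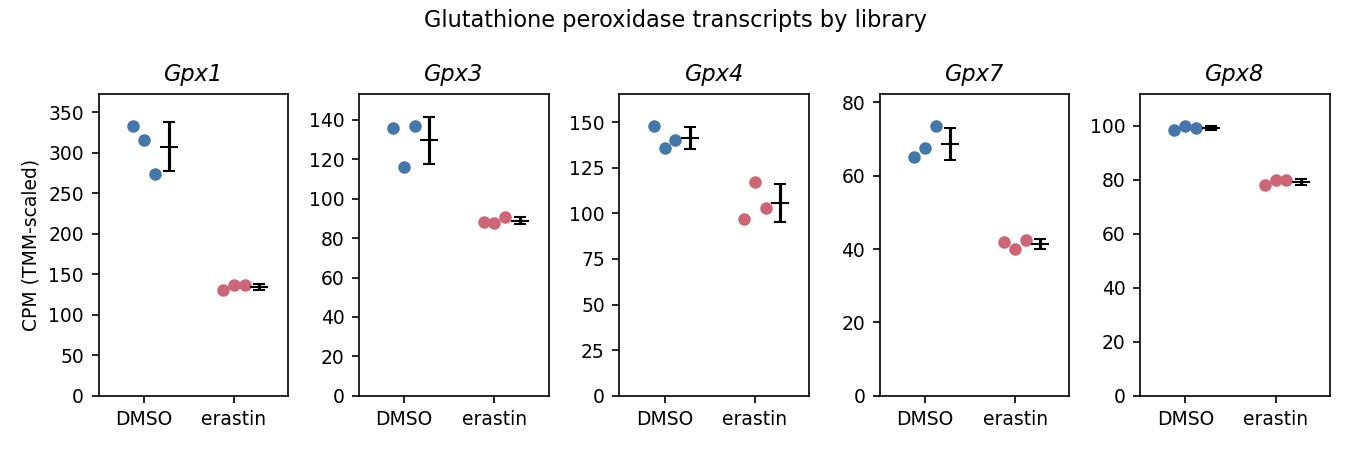
CPM (scaled by library size and TMM factors; vertical axes start at 0) of each glutathione peroxidase gene in the 3 DMSO (blue) and 3 erastin (red) libraries, with replicates 1 to 3 from left to right and the mean ± SD in black beside them. In each panel every erastin point lies under every DMSO point, with the widest gap in Gpx1 (274 against 136 CPM).

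The remaining annotated family genes gave little or no signal. Gpx2, an enzyme of the gut epithelium, and Gpx5, an enzyme of the epididymis, had 0 counts in all 6 libraries, and Gpx6 had 1 count, in erastin replicate 1. These counts allow at most the floor of 0.139 to 0.233 CPM for a gene with 0 counts in a library. The pseudogene Gpx2-ps1 had 0 counts too, and Gpx4-ps2 was not analysed here. The treatment of reads that match several loci is not given in the sources used here, so reads shared between Gpx4 and its processed copies leave its level uncertain. No annotated exon of another gene overlapped the exons of the 5 genes, and only Gpx8 lay within the span of another gene, Cdc20b, on the opposite strand.

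Levels of different genes were compared per kilobase of the longest annotated transcript, as CPM per kilobase (RPKM). In DMSO the order was Gpx1 (287 ± 28.1 RPKM), Gpx4 (142 ± 6.05), Gpx8 (95.3 ± 1.04), Gpx3 (81.3 ± 7.19) and Gpx7 (53.3 ± 3.38; SD, n = 3 each). The same order held with erastin, at 125 ± 3.37, 106 ± 10.2, 76.1 ± 0.938, 55.8 ± 1.07 and 32.2 ± 1.05 RPKM (SD, n = 3 each). In neither group did neighbours in this order overlap between libraries, but the gap between Gpx1 and Gpx4 narrowed from 256 against 149 RPKM in DMSO (lowest Gpx1 and highest Gpx4 library) to 121 against 117 RPKM with erastin. The summed level of the 5 genes was 690, 652 and 635 RPKM in DMSO and 381, 407 and 397 RPKM in erastin libraries. The order of Gpx4 and Gpx8 depends on the length used. With the exon union (all annotated exons merged) as length, Gpx8 held more of the summed level than Gpx4 in both groups. The mean shares were 18.4% against 15.9% in DMSO and 24.3% against 19.6% in erastin libraries.

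The make-up of the summed level differed as well. Gpx1 held 45.1%, 45% and 40.3% of it in the DMSO libraries, against 31.7%, 31.2% and 32% with erastin, a difference of -11.8 percentage points. The share of Gpx4 was 21.6% ± 0.568 in DMSO and 26.8% ± 1.78 in erastin libraries, and that of Gpx8 was 14.5% ± 0.708 and 19.3% ± 0.409 (SD, n = 3 each). For Gpx1, Gpx4 and Gpx8 the groups did not overlap (exact permutation test over libraries, two-sided, p = 0.1, the smallest that 3 against 3 libraries can give; Benjamini-Hochberg adjusted p = 0.167 over the 5 genes). Gpx3, at 12.4% ± 1.16 and 14.1% ± 0.543, and Gpx7, at 8.12% ± 0.837 and 8.16% ± 0.482 (SD, n = 3 each), had overlapping groups (exact permutation p = 0.2 and 1, adjusted p = 0.25 and 1). The ratio of Gpx1 to Gpx4, per length, was 2.02 ± 0.172 in DMSO and 1.19 ± 0.0894 with erastin (SD, n = 3 each; exact permutation p = 0.1, again the smallest possible). The lengths are those of M21 and not of the model used for counting, so shares within a group are less certain than changes of a gene; with the exon union as length, Gpx4 held 15.9% and 19.6% and Gpx8 18.4% and 24.3% in DMSO and erastin libraries.

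**Figure D2:**
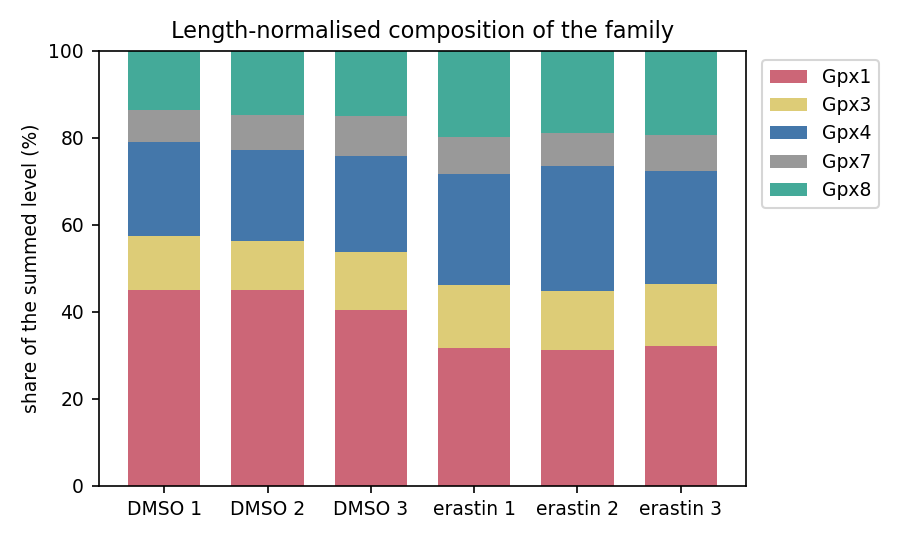
Stacked bars give the percentage that each gene contributed to the summed RPKM of the 5 genes in each library; every bar adds to 100%. The Gpx1 share is 40.3% or more in the 3 DMSO bars and 32% or less in the 3 erastin bars, and the Gpx4 and Gpx8 shares are larger in the erastin bars.

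Gpx1, Gpx3, Gpx4 and Gpx7 have GC-rich transcripts, and all 5 transcripts are short, so the fold changes were set beside the trends of all genes with these features. Over 13937 genes with an annotated sequence, Spearman's rho with the log2 fold change was -0.185 for GC content and 0.136 for length; these are correlations across genes of the same 6 libraries, and genes are not independent replicates. The median log2 fold change went from 0.26 in the decile of genes lowest in GC to -0.22 in the highest, and from -0.21 in the shortest decile to 0.12 in the longest. Gpx4, with 60.2% GC and 995 bases, lay at percentile 95.9 of GC content and percentile 8.74 of length among the genes tested, Gpx1 (57.2%, 1072 bases) at percentiles 87.5 and 9.72, and Gpx8 (44.3%, 1042 bases) at percentiles 22.3 and 9.36. These values are those of the longest annotated transcript of each gene. Which Gpx4 transcript these cells express was not tested.

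A smooth trend with GC content and length, fitted per library, put the log2 fold change at -0.25 for a transcript like that of Gpx4, at -0.19 for Gpx1, at -0.18 for both Gpx3 and Gpx7, and at 0.0021 for Gpx8. With the trend removed as an offset, Gpx1 was lower by a log2 fold change of -1.0 (edgeR adjusted p = 4.71e-08), Gpx7 by -0.55 (adjusted p = 0.00022), Gpx3 by -0.37 (adjusted p = 0.00244) and Gpx8 by -0.33 (adjusted p = 0.00512), all 4 still passing. In that fit 20.2% of all genes tested were lower. Gpx4 did not pass. With the offset for length alone Gpx4 was at -0.31 (adjusted p = 0.0104), and with that for GC content alone at -0.21 (adjusted p = 0.0582). Whether the trend arose in library preparation or in the cells was not tested.

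**Figure D3:**
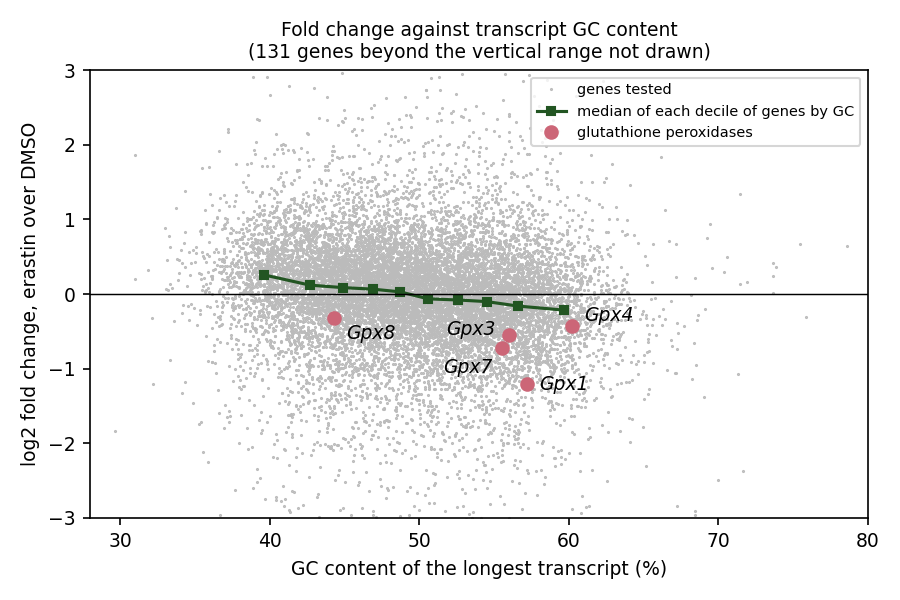
Each grey point is a gene tested, with the GC content of its longest transcript (%) against its log2 fold change; the green squares are the medians of deciles of the genes ordered by GC, drawn at their median GC, and red points are the glutathione peroxidases. The green line declines from 0.26 to -0.22; Gpx1 lies far under it, Gpx4 nearest to it, and Gpx8 under it at low GC.

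**Figure D4:**
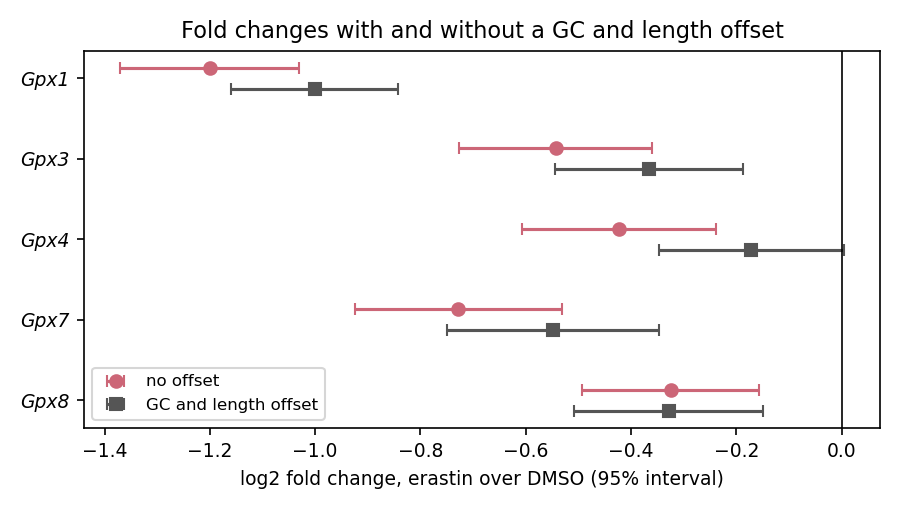
Log2 fold changes (erastin over DMSO) with 95% intervals for the 5 genes, without an offset (red circles) and with the GC and length offset (grey squares); the vertical line marks no change. The intervals of Gpx1, Gpx3, Gpx7 and Gpx8 stay under 0 in both fits, and that of Gpx4 reaches 0.0034 with the offset.

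Gpx1, Gpx3 and Gpx4 belong to the selenoproteins, of which M21 annotates 24 genes. Of 21 that were tested, 12 were lower and 5 higher with erastin, and 4 did not pass, with a median log2 fold change of -0.37, against 21.5% lower and 21.6% higher and a median of -0.0014 over all genes tested. The GC and length offset left 10 lower and 4 higher. Without the glutathione peroxidases, 9 of 18 tested genes were lower and 5 higher. Gpx1 ranked 5 among the falls, behind Dio3, Selenom, Msrb1 and Selenoh, and these were the 5 that passed with a log2 fold change of -1 or less.

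Selenom, an ER thiol oxidoreductase, went from 118 ± 5.69 to 45.1 ± 1.99 CPM (edgeR log2 fold change -1.39, adjusted p = 1.45e-08), and Msrb1, the methionine sulfoxide reductase, from 70.4 ± 4.09 to 28.1 ± 2.22 CPM (-1.32, adjusted p = 1.12e-07; SD, n = 3 each). Selenow, a small redox protein, fell from 189 ± 9.05 to 110 ± 7.85 CPM (SD of 3 libraries; log2 fold change -0.79, edgeR adjusted p = 2.01e-06). The opposite direction was taken by Txnrd1, the cytosolic thioredoxin reductase and a known target of the transcription factor NRF2, which was at 230, 220 and 242 CPM in DMSO and at 913, 956 and 729 CPM in erastin libraries (adjusted p = 1.52e-09 in edgeR, log2 fold change 1.91). The selenoprotein transcripts thus did not all move in the same direction, and Gpx4 ranked 10 of 21 counted from the largest fall.

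**Figure D5:**
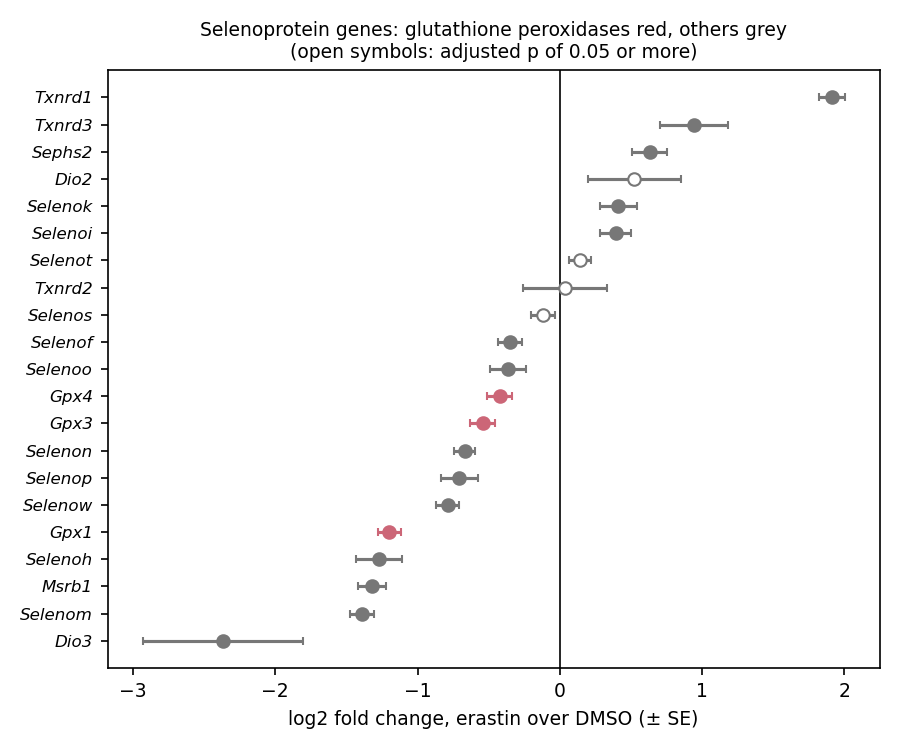
Log2 fold changes (erastin over DMSO) with their SE for the 21 selenoprotein genes tested, ordered by size; red marks the glutathione peroxidases, and open symbols did not pass at an adjusted p-value under 0.05. Txnrd1 is highest at 1.91, Dio3 lowest with a wide error, and Gpx1 sits among the larger falls while Gpx3 and Gpx4 are near the middle.

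A list around selenocysteine synthesis, insertion and selenium supply also held genes with wider roles, such as Sars and Ncl. Of its 14 tested genes, 5 were higher, 3 lower and 6 did not pass (median log2 fold change 0.10). Over all genes tested 21.6% were higher and 21.5% lower, so the lower genes of this list were near the background share. Sephs2, which makes the selenium donor and is itself a selenoprotein, rose by 0.63 on the log2 scale, and Scly, which frees selenium from selenocysteine, rose by 0.83 (edgeR adjusted p = 0.000926 and 0.00118). Sars, the cytosolic seryl-tRNA synthetase that charges the selenocysteine tRNA as a first step, rose by 0.49, and Ncl, nucleolin, an RNA-binding protein reported to bind selenoprotein mRNAs, rose by 0.83 (edgeR adjusted p = 3.73e-05 and 2.26e-07). Eefsec, the elongation factor for selenocysteine, was lower by a log2 fold change of -0.69 (edgeR adjusted p = 0.00569). The other lower genes were Pstk and Trnau1ap, at -0.60 and -0.55 (edgeR adjusted p = 0.0181 and 0.00976). Secisbp2 was the remaining gene to rise, by 0.71 (edgeR adjusted p = 0.00553). Selenium content and protein levels were not analysed here.

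Of 10 tested genes that supply or regenerate glutathione, 8 rose and 2 fell, with a median log2 fold change of 0.64, where 21.6% of all genes tested rose and 21.5% fell. The 2 falls were thus near the background share. The largest rises were those of the antiporter subunit gene Slc7a11 (3.75) and the glutamate-cysteine ligase genes Gclm (1.96) and Gclc (1.63), with Slc3a2 at 0.93 (edgeR adjusted p = 1.01e-09, 1.31e-09, 7.73e-09 and 3.2e-07). The 2 that fell, Idh1 and G6pdx, make NADPH, the electron source of glutathione reductase, at log2 fold changes of -0.95 and -0.36 (edgeR adjusted p = 1.36e-06 and 0.00946). Pgd and Me1 of the same list also make NADPH and rose, by 0.44 and 0.47 (edgeR adjusted p = 0.000308 and 0.000837). The NADPH-producing genes of this list thus moved in both directions.

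Among the ER oxidative folding genes, the setting in which GPX7 and GPX8 act, 10 of 14 fell, 2 rose and 2 did not pass, with a median log2 fold change of -0.73, where 21.5% of all genes tested fell and 21.6% rose. Pdia6 fell from 345 ± 18 to 145 ± 11.4 CPM, P4hb, the main protein disulfide isomerase, from 1300 ± 36.3 to 651 ± 17 CPM, and Pdia3 from 777 ± 42.8 to 423 ± 19.9 CPM (means and SD of 3 libraries; adjusted p = 1.92e-08, 2.04e-08 and 1.77e-07 in edgeR). Ero1l, the oxidase that oxidises protein disulfide isomerases and makes hydrogen peroxide, rose from 85 ± 8 to 319 ± 23.1 CPM (SD of 3 libraries; log2 fold change 1.91, adjusted p = 1.11e-09 in edgeR), and the ER chaperone gene Hspa5 rose by 0.26 (edgeR adjusted p = 0.00441). Qsox1, Prdx4 and Vkorc1, which are not isomerase genes, were among the falls, at -0.55, -0.61 and -1.0 (edgeR adjusted p = 9.65e-06, 0.00026 and 0.000474). The falls of Gpx7 (-0.73) and Gpx8 (-0.33) thus stood beside falls of most genes of this list and a rise of Ero1l.

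Promoters were searched because the 5 genes fell together. The RefSeq windows (GRCm38.p6) from 250 bases before to 50 bases after the annotated starts were 8 in number, 4 of them for Gpx4, and both strands were read. RefSeq starts can lie inside the M21 gene spans given above. The Gpx3 window (chr11:54902604-54902903) lay inside that span, and the Gpx7 window (chr4:108406664-108406963) almost wholly so. Sequence before the M21 spans of Gpx3 and Gpx7 was thus hardly searched. The antioxidant response element core TGACNNNGC, bound by NRF2 with small MAF proteins, was in none of the 8 windows and in 12.4% of all 32851 windows. The ATF4 element core TGATGNAA (3.97% of all windows) and the TATA box core TATAAA (13.6%) were in none of the 8 either. Whether these absences differ from the shares over all windows was not tested, and so few windows could hardly show it. The GC box core GGGCGG (35.7% of all windows) was found at Gpx1, Gpx3, Gpx7 and in 3 of the 4 Gpx4 windows, and not at Gpx8, whose window had 45.3% GC. The windows with a match had 47% (Gpx1), 56.3% (Gpx3), 60.3% (Gpx7) and 64.3% to 68.3% GC (Gpx4), against a median of 52.7% over all windows. The Gpx1 match lay after the annotated start. Whether such matches exceed those of other windows of like GC content was not tested. Of those Gpx4 windows, the ones starting at chr10:80053315 and chr10:80053409 overlap and hold the same 2 GC boxes, so they are not separate matches. These are matches of letters and not measured sites, and the motifs did not overlap each other.

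Genes with the most similar profile were those with the smallest Euclidean distance of log2 CPM, centred per gene, over the 6 libraries, among 8832 other tested genes with a mean of at least 10 CPM. They were Tmem176b for Gpx1 (distance 0.0442), Ivd for Gpx3 (0.0499), Cox6a1 for Gpx4 (0.0727), Pias3 for Gpx7 (0.0537) and Ncstn for Gpx8 (0.0306). The next 2 in each case were Scd1 and Plxna4 for Gpx1, Fech and Syt13 for Gpx3, Eif3m and Tbrg1 for Gpx4, Ckap4 and Mmp2 for Gpx7, and Serping1 and Pdzd4 for Gpx8. Within the family, Gpx4 and Gpx8 were the closest pair (0.24) and Gpx1 and Gpx8 the most distant (1.09). Since the treatment difference dominates such distances, they mainly order genes by the size of the fall.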

How the data were processed

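RNA from 6 MEF samples was depleted of ribosomal RNA, fragmented and sequenced on an Ion Proton, per the labels' protocols. The authors deposited whole-number read counts per gene, not normalized; HTSeq 0.9.1, SAMtools and the build mm10 are named in the submitters' processing notes, while the aligner, annotation release and strand setting are not given in the sources used here. Identifiers were matched without version to GENCODE M21 (42462 of 43346 had a symbol; the version differed for 3 of the 5 members). Per-sample columns left unused numbered 0.

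Counts were analysed with edgeR 4.0.16 in R 4.3.3 (filterByExpr with a minimum count of 10, TMM factors, quasi-likelihood test, treatment as only term, all 6 libraries), with Benjamini-Hochberg adjustment over 14000 genes and a threshold of 0.05; the code was tested on simulated data. Intervals used the t distribution and the quasi-likelihood SE. The GC and length offset came from smooth fits per library (mgcv 1.9.3). Alternatives are in the closing section; they included DESeq2 1.42.0. The members, lists and tests were chosen with earlier results of these data known. Named genes were the members, other Gpx genes, the 4 list genes with the smallest p-value per list and the nearest profiles. Others were chosen after their values were seen (Dio3, Selenoh, Eefsec, Pstk, Trnau1ap, Secisbp2, Idh1, G6pdx, Pgd, Me1, Hspa5, Qsox1, Prdx4, Vkorc1, Prdx1, Cdc20b and single markers).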

Additional observations from a re-analysis of the deposited data

How the results depend on the processing

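All 5 genes were lower in each of 18 alternatives per gene (3 other scalings, 2 other filters, the replicate block, 3 offsets, offset with block, thinning, DESeq2 and leaving out each library), and Gpx1, Gpx3, Gpx7 and Gpx8 passed in all 18. Gpx8 passed only narrowly with the offset for length alone, at a log2 fold change of -0.216 (edgeR adjusted p = 0.0467). Gpx4 passed in 15. Its log2 fold change was -0.205 with the GC offset, -0.172 with the GC and length offset and -0.175 with that offset and the replicate block (edgeR adjusted p = 0.0582, 0.109 and 0.116). Over its alternatives the adjusted p-value ran from 2.15e-05 (DESeq2 Wald test) to 0.116 (edgeR). Leaving out a library gave -1.28 to -1.14 for Gpx1, -0.614 to -0.504 for Gpx3, -0.501 to -0.366 for Gpx4, -0.765 to -0.679 for Gpx7 and -0.334 to -0.316 for Gpx8. Of the 110 alternative values of the 10 list counts, 109 stayed within 1.5 times; the count of falling glutathione supply genes went from 2 to 1 without erastin replicate 1 (range 1 to 2). The 20 list genes followed kept direction and call in all 360 alternative values.

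With the exon union as length, the share difference was 3.73 percentage points for Gpx4, 5.91 for Gpx8 and -0.0267 for Gpx7; leaving out a library moved that of Gpx7 between -0.355 and 0.478, around 0.0381. These values follow from other lengths and fewer libraries.

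With the replicate block all 5 genes passed (Gpx4 at -0.426, edgeR adjusted p = 0.00193), so it changed no call. Equally numbered libraries deviated from their group means with correlations of 0.0401, 0.00379 and -0.0055. Such values cannot exclude a shared culture or batch with small effects, and the labels do not say whether equal numbers shared one. Total-count scaling moved the median of all genes to 0.0646 and upper-quartile factors to -0.0552. All 5 genes also passed at an adjusted p-value under 0.01. Depth limits what can be said of Gpx2, Gpx5 and Gpx6.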

Other observations

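Of 7 tested genes of the other peroxidases, the peroxiredoxins and catalase, 3 rose and 4 fell with erastin, with a median log2 fold change of -0.32. Over all genes tested, 21.6% rose, 21.5% fell and 43.1% changed in either direction. Cat, the peroxisomal catalase, rose by 0.48 on the log2 scale, from 82.2 ± 2.91 to 115 ± 5.8 CPM, and Prdx6, a peroxiredoxin that also reduces phospholipid hydroperoxides, rose by 0.55, from 90.5 ± 4.03 to 132 ± 6.41 CPM (SD of 3 libraries; adjusted p = 0.000246 and 6.86e-05 in edgeR). Prdx1, named after its values were seen, was the third to rise (0.47, edgeR adjusted p = 0.000267). Prdx2 fell from 233 ± 14.6 to 147 ± 5.54 CPM and Prdx5 from 107 ± 6.74 to 73.1 ± 2.23 CPM (SD of 3 libraries; log2 fold changes -0.67 and -0.55, adjusted p = 5.62e-06 and 9.4e-05 in edgeR). These 7 genes kept their calls with the GC and length offset.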
